A study of Rattus norvegicus with 40 samples.

Results

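Left common carotid arteries, taken 4 days after injury with a balloon catheter, were compared with the right carotid arteries of rats that had the same operation on the left side alone. The arrays were chosen by their titles, which name the side, the gel and the day, and 3 left and 3 right arrays of the 40 in the series carry such a title. All rats were male Wistar-Kyoto rats of 3 months. Plain Pluronic gel F-127, a polymer that serves as a carrier, had been put on the outer side of the injured left artery, so injury and gel go together in the left group and neither was applied to the right artery. Each array holds the pooled RNA of 3 vessels, and the sources used here do not say whether left and right pools of one number came from the same rats. Left arteries of sham-operated rats taken on day 4 (6 arrays) and of intact rats (6 arrays), neither given gel, served as a second reference. The same left and right pair was also measured on day 1 with gel and on day 4 with tissue plasminogen activator (tPA, the protease that turns plasminogen into plasmin) in the gel, with 3 arrays in each group. A pool is the replicate here, and p-values measure the spread between pools.

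Balloon injury strips the endothelium from the inside of the artery and stretches its muscular media. In the days that follow, smooth muscle cells of the media lose part of their contractile program, enter the cell cycle, lay down a provisional matrix and move toward the lumen, where they later build a neointima, while leukocytes enter the wall. The outer layer, the adventitia, holds fibroblasts, fat and the sympathetic nerve fibres that set vascular tone, and tissue next to the vessel can be removed with it.

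Values are linear intensities, which are comparable for one probe set between arrays and not between probe sets, and differences are on the log2 scale after a floor at 23.3. A probe set is a group of short probes for one transcript. Of 5827 probe sets tested, 297 (5.1%) differed between left and right at a limma adjusted p of at most 0.05, 95 of them (1.63%) higher and 202 (3.47%) lower in the injured artery. Over 1 probe set per gene, 182 of 3546 genes passed (5.13%), 58 (1.64%) higher and 124 (3.5%) lower, and the median difference of all genes was 0.07. The 3 left and the 3 right values did not overlap for 1771 probe sets (30.4%), 16.6% higher and 13.8% lower. For a single value the smallest exact permutation p with 3 against 3 is 0.1. The split between higher and lower depended on the fit: it was 256 and 299 in a fit of the 6 arrays alone, 454 and 548 with array weights, and 68 and 214 with arrays scaled by their median. The count of 297 fell to between 79 and 190 when 1 of the 6 arrays was left out, and was lowest without right replicate 3. The estimate of the spread is shared by all 40 arrays, and the count was 516 with 4 tPA arrays set aside and 555 in a fit of the 6 arrays alone. Of the genes named below as changed, Tnn, Arg1, Racgap1, Col12a1, Pros1, Adora2b, Bmp4, Adra1d, Ddah1, Pfkm, Mapk8ip2, Ptprr, Sv2b, Nalcn, Gnao1 and Pc passed with any 1 array left out, as did Il1rl1, Mcm6, Cd74, Maoa, Map2, 1 Gnas probe set and 1 Igf1 probe set, named after their values were seen. The other genes lost their call in at least 1 of these 6 fits.

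The actin 3'/5' ratio, which compares control probes at the ends of a transcript, was 7.38 to 8.09 in left and 11.68 to 13.61 in right arrays, without overlap. The same ratio for GAPDH overlapped, with 1.41 to 6.22 in left and 1.81 to 6.64 in right arrays. Array medians lay between 130.6 and 152.1. Among probe sets that are bright on most arrays and drop to near 0 on some, 2 to 8 did so on left and 8 to 10 on right arrays. The part of these measures in the results was not tested. Outside the 6 arrays, 4 tPA arrays were set aside in an alternative fit, replicate 1 of both sides on day 4 and replicate 2 of both sides on day 1. The centred mean of 13 mitosis genes was -0.35 on the left day 4 array where the others of its group had 1.68 and 1.99. The standard deviation of log2 differences between arrays was 1.11 and 1.33 for left replicate 1 of day 4, against 0.843 between the others. For right replicate 1 it was 1.24 and 1.22, against 0.893. On day 1 the values lay closer: 1.2 and 1.15 against 1.17 for left replicate 2, and 1.02 and 0.95 against 0.894 for right replicate 2. Of the smooth muscle markers, Acta2, smooth muscle actin, read 5358 to 6657 in left and 5170.1 to 6306 in right arrays. Tagln, transgelin, read 3165 to 3822 in left and 2851 to 3881 in right arrays. Others read lower in left arrays, among them Myh11, a smooth muscle myosin (-1.13, limma adjusted p = 0.141). Of 17 contractile genes, 7 had differences above 0, with a median of -0.19. The endothelial list gave no left to right difference that passed (0 of 9 genes, median 0.12). Pecam1, an endothelial junction protein, read 83.4 to 164 in left and 74.3 to 121 in right arrays, so the groups overlapped. In whole vessels, fewer cells of a type and less RNA per cell cannot be told apart.

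**Figure D1:**
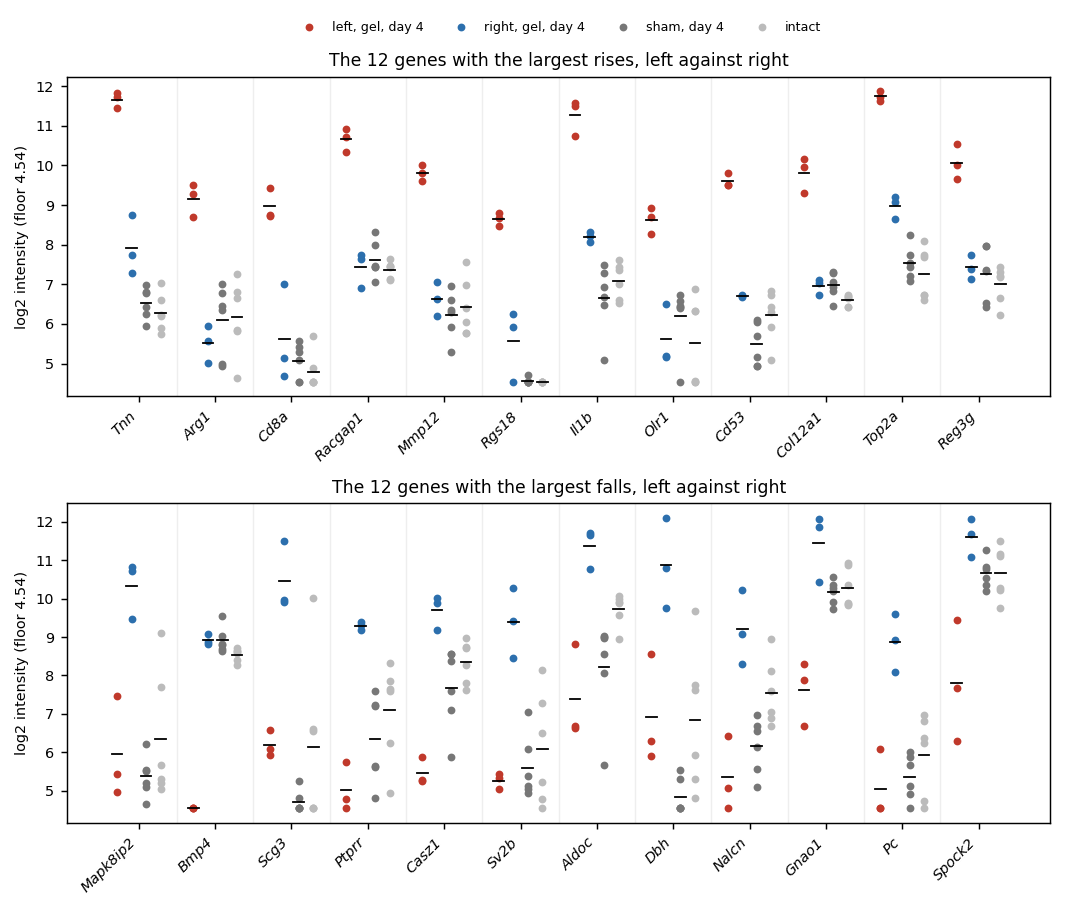
Log2 intensity on each array (points) and group means (bars) for the 12 genes named by rule for the largest rises and the 12 for the largest falls in injured left against right arteries, beside sham arteries of day 4 and intact arteries. For Racgap1 and Col12a1 the right arrays overlap sham and the left arrays lie far above, for Bmp4 the left arrays lie at the floor, and for Dbh and Scg3 the right arrays lie far above sham.

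Genes of cell division were higher in the injured artery. The list held 28 genes of mitosis and chromosomes, of which 17 were on the array and 13 bright enough to be tested. Of these 13, 7 were higher and 0 lower, where 1.64% of all genes were higher, and all 13 had differences above 0 with a median of 1.92. The list mean, as log2 values centred on the average of the 40 arrays, was 1.44 to 1.63 in left, -0.40 to -0.18 in right and -1.08 to -0.45 in sham arrays, so left arrays stood apart from both references. Racgap1, which organises the midzone of the dividing cell for cytokinesis, read 1679, 1294 and 1949 on the left arrays and 199.6, 120.1 and 213 on the right arrays. Every left value was above every right value, and sham arrays (132 to 321) overlapped the right ones. The rise was 9.39-fold (95% interval 4.02 to 21.9, limma adjusted p = 0.00226), and the adjusted p was at most 0.0155 with any 1 array left out.

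Cdc20, the activator of the anaphase-promoting complex, read 427, 396 and 496 on left and 84.1, 143.6 and 96.0 on right arrays. Its groups did not overlap, and the rise was 4.17-fold (2.05 to 8.49, limma adjusted p = 0.0137). Top2a, the topoisomerase that untangles sister chromatids, read 3159, 3732 and 3419.8 on left and 593, 399 and 538 on right arrays. The right arrays lay above the sham range of 136.5 to 304, and the left arrays lay far above both. Top2a rose 6.82-fold (2.52 to 18.4, limma adjusted p = 0.0185), while its other probe set differed by 0.49. Cdk1, the kinase that starts mitosis, read 759, 1133 and 724 on left and 109, 186 and 194 on right arrays, a rise of 5.41-fold (2.08 to 14.1, limma adjusted p = 0.0312). Cenpw, a centromere protein, Ccnb1, the cyclin partner of Cdk1, and Smc4, a subunit of condensin, were 2.25, 2.18 and 1.60 higher on the log2 scale. H2az1, a histone variant (1.35, limma adjusted p = 0.051), and Bub1b, a spindle checkpoint kinase (1.92, limma adjusted p = 0.065), did not pass, although their groups did not overlap. Higher left values without overlap were found for 16.6% of all probe sets. With 1 array left out, 1 to 3 of the 13 passed (1 without left replicate 3 or right replicate 3), with medians of 1.65 to 2.13.

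Of genes that copy DNA, 1 of 12 passed as higher, where 1.64% of all genes were higher. Tyms, the enzyme that makes thymidylate, read 217, 337 and 188 on left and 78.8, 68.4 and 57.6 on right arrays and rose 3.54-fold (1.69 to 7.42, limma adjusted p = 0.0368), a call that was lost in each fit with 1 array left out. Of the list, 11 of 12 differences were above 0 with a median of 0.92, and against sham 7 of 12 were higher in the left artery. Mcm5 and Mcm6, subunits of the replicative helicase, were named after their values were seen. Mcm5 read 592, 430.3 and 623 on left and 111, 87.2 and 114 on right arrays, a rise of 5.23-fold (limma adjusted p = 0.0132). Of 3 probe sets of Mcm6, 1 passed (4.06, limma adjusted p = 0.00492) and the others differed by 2.14 and 1.67. On that probe set 2 of 3 right values lie under the floor, which sets part of the difference. Of 14 genes of the G1 phase, the cyclins, kinases and inhibitors that act before DNA synthesis, 0 passed either way, with a median of 0.34.

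Promoters of 3 mitosis genes are shown because the list moved together and because genes of mitosis often carry CCAAT boxes and the cell cycle homology element TTTGAA. The sequences are the 250 bases before the RefSeq start of each gene in build GRCr8, printed 5′ to 3′ on the gene's strand, with each CCAAT and TTTGAA or its reverse complement in capitals. They lie at chr5:137255800-137256049 (minus strand) for Cdc20, chr10:84473094-84473343 (minus strand) for Top2a and chr20:19265043-19265292 (plus strand) for Cdk1.
Cdc20: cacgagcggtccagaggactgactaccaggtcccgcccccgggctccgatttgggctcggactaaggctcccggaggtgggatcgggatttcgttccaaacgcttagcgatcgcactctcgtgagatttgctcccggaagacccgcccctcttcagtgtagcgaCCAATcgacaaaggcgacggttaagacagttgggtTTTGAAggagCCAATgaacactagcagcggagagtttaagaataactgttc
Top2a: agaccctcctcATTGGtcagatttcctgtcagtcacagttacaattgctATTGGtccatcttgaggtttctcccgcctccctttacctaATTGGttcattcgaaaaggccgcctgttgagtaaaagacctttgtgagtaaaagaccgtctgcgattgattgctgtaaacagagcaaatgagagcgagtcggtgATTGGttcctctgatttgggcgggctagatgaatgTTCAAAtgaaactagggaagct
Cdk1: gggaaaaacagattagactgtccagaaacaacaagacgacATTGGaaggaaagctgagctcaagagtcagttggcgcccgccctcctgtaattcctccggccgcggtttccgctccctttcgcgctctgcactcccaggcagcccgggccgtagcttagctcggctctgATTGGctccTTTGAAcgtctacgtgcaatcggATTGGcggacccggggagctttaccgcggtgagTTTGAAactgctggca
On either strand, CCAAT was found in 10 of the 12 mitosis genes with an entry (83.3%), against 34.3% of all 27457 promoters and 35.7% of the 2921 tested genes matched. TTTGAA was found in 5 of the 12 (41.7%), against 16% and 9.17%, and both in 5 of the 12, against 5.76% and 3.53%. Of the 7 genes that passed, Racgap1 had no entry and Cenpw had neither motif. DNA replication genes held CCAAT in 5 of 12 (41.7%) and TTTGAA in 0 of 12. A match describes these letters and shows neither a bound site nor a cause.

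Of 10 genes of the provisional matrix, 3 passed as higher and 0 as lower, where 1.64% of all genes were higher, and the median was 1.34. Tnn, a tenascin, one of the large glycoproteins of the matrix, had the largest rise among the genes named by rule. It read 3369, 2779 and 3624 on left and 156, 213 and 431 on right arrays, against 62.3 to 125 in sham. The groups did not overlap, the rise was 13.3-fold (5.15 to 34.5, limma adjusted p = 0.00179), and the adjusted p was at most 0.011 with any 1 array left out. Spp1, osteopontin, a matrix ligand of integrins, read 5986, 4959.9 and 6657 on left and 725, 1659 and 2156 on right arrays. Right and sham arrays (1374 to 2157) overlapped, and the rise in the left artery was 4.24-fold (2.00 to 8.99, limma adjusted p = 0.0185). Postn, periostin, rose 3.00-fold (1.77 to 5.11, limma adjusted p = 0.0106), with 6062 to 7033 on left and 1463 to 3467 on right arrays. Vcan, the proteoglycan versican, read 1113 to 1251 on left and 368 to 562 on right arrays without overlap and just missed the threshold (1.35, limma adjusted p = 0.0519). Left values lay above right values without overlap for 16.6% of all probe sets.

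Among fibrillar collagens, elastic fibre genes and their enzymes, 1 of 15 was higher and 0 lower, with 14 of 15 differences above 0 and a median of 0.44. Of all genes, 1.64% were higher. The gene that passed was Col12a1, a collagen that sits on the surface of collagen fibrils. It read 1004, 629.9 and 1147 on left and 130.3, 105 and 137 on right arrays, with sham at 87.2 to 157. Left arrays alone were high, and the rise was 7.27-fold (3.73 to 14.2, limma adjusted p = 0.00108), with an adjusted p of at most 0.0107 in each fit with 1 array left out. Mmp12, the elastase of macrophages, was the 1 of 15 proteases and inhibitors that passed. It read 1038, 789 and 892 on left and 73.0, 98.9 and 135 on right arrays, a rise of 9.09-fold (2.97 to 27.8, limma adjusted p = 0.0154). Sham arrays read 39.2 to 124 for Mmp12 and overlapped the right arrays. Mmp9, a gelatinase, read 492, 588 and 1304 against 88.4, 81.9 and 62.0 without overlap and did not pass (limma adjusted p = 0.138). Such higher left values without overlap were found for 16.6% of all probe sets.

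The fibrinolysis and coagulation list held 2 higher and 1 lower gene out of 16, with a median of 0.39. Of all genes, 1.64% were higher and 3.5% lower. Pros1, protein S, a cofactor that limits clotting, read 2079.7, 1536 and 1458 on left and 687, 637 and 449 on right arrays. It rose 2.87-fold (1.88 to 4.40, limma adjusted p = 0.00374), with an adjusted p of at most 0.0409 with any 1 array left out. Tfpi, the inhibitor of the tissue factor pathway, rose 4.18-fold (2.08 to 8.37, limma adjusted p = 0.0114), with 474 to 616 on left and 111 to 151 on right arrays. F3, tissue factor itself, which starts clotting, moved the other way: it read 384, 422 and 269 on left and 2375, 1013 and 1457 on right arrays, 4.32-fold lower in the left (1.79 to 10.4, limma adjusted p = 0.0421). The call for F3 was lost in each fit with 1 array left out (limma adjusted p up to 0.162). Right and sham arrays (598.1 to 1782) overlapped for F3. The plasminogen activators and their receptor lay above the right arrays on every left array, as did 16.6% of all probe sets, but did not pass. Plat, which encodes tPA, read 1570.5, 1319 and 1134 on left and 394, 567 and 685 on right arrays (1.31, limma adjusted p = 0.0594). Plau, which encodes urokinase, differed by 1.46 (limma adjusted p = 0.0586) and its receptor Plaur by 1.45 (limma adjusted p = 0.148). Against sham all of Plat, Plau and Plaur were higher in the left artery, by 1.83, 2.29 and 2.66.

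Among genes of leukocytes and their signals, a few passed as higher in the injured artery, where 1.64% of all genes did. Il1b, the cytokine interleukin-1 beta, read 1714.5, 3067 and 2912 on left and 300.5, 271 and 318 on right arrays. Right arrays lay above sham (34.4 to 178) and left arrays above both, and Il1b rose 8.40-fold (2.32 to 30.4, limma adjusted p = 0.0431). Another Il1b probe set differed by 1.61 and did not pass (limma adjusted p = 0.288). Ccl2, a chemokine that draws monocytes, read 5410.1, 5249 and 5066 on left and 948, 650.4 and 1344 on right arrays, a rise of 5.58-fold (1.96 to 15.9, limma adjusted p = 0.0455). These were the 2 of 16 chemokines and cytokines that passed (median 0.81), and both lost their calls in each fit with 1 array left out. Cd14, a receptor for bacterial lipid on macrophages, was the 1 of 11 macrophage markers that passed (2.94-fold, limma adjusted p = 0.0463), and 0 of 11 passed with any 1 array left out. The other Cd14 probe set differed by 0.39 with overlapping groups. Aif1, a macrophage marker of the same list, did not pass on the probe set that represents it (2.3, limma adjusted p = 0.0951). Another Aif1 probe set did pass (1.66, limma adjusted p = 0.048), and a further one differed by 0.84. The macrophage list was graded over the groups: its mean was 1.07 to 1.49 in left, 0.10 to 0.43 in right and -1.55 to -0.48 in sham arrays. Its median difference was 1.11 between left and right, and 9 of 11 genes passed as higher in left than in sham arteries.

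Of lymphocyte and pan-leukocyte markers, 2 of 13 passed as higher (median 0.61), where 1.64% of all genes were higher. Cd8a, a coreceptor of cytotoxic T cells, read 433, 426 and 697 on left and 128, 35.6 and 25.8 on right arrays, and right and sham arrays (14.6 to 47.4) overlapped. Its rise of 10.3-fold (2.76 to 38.5, limma adjusted p = 0.0306) passed in 1 of the 6 fits with 1 array left out. Cd53, a tetraspanin of leukocytes, read 730.3, 730.4 and 897 on left against 105, 104.9 and 103 on right arrays (7.48-fold, limma adjusted p = 0.0429), a call lost in each of these fits. Antigen presentation gave 1 of 18 higher, RT1-Ba, a chain of rat class II MHC, at 3259 to 3517 on left and 880.1 to 968 on right arrays (3.69-fold, limma adjusted p = 0.0245). Other RT1-Ba probe sets differed by 2.24 and 0.8 (limma adjusted p = 0.0136 and 0.261). A probe set of Cd74, the invariant chain that escorts class II molecules, was 3.70 higher (limma adjusted p = 0.00633), and its 3 other probe sets by 1.05 to 2.15. It was named after its values were seen. Of chemokine and cytokine receptors 0 of 14 passed, of neutrophil markers 0 of 3 and of mast cell markers 0 of 5. Vcam1, the adhesion molecule that holds leukocytes, was the 1 of 9 integrin and adhesion genes that passed (3.19-fold, 1.75 to 5.82, limma adjusted p = 0.0185). Another Vcam1 probe set differed by 1.12 and did not pass (limma adjusted p = 0.101).

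The list of nitric oxide and cyclic GMP genes gave 1 higher and 2 lower of 15, where 1.64% of all genes were higher and 3.5% lower. Arg1, arginase, which uses the arginine that nitric oxide synthases need, read 418, 723 and 621 on left and 47.3, 32.3 and 62.4 on right arrays. Sham arrays read 30.8 to 128, and left arrays lay above all of them. Arg1 rose 12.5-fold (4.27 to 36.7, limma adjusted p = 0.00503), with an adjusted p of at most 0.0281 with any 1 array left out. Other rises among the 12 largest named by rule were Reg3g, a secreted lectin (6.26-fold), Olr1, a scavenger receptor for oxidised lipoprotein (8.11-fold), and Rgs18, a regulator of G protein signals in blood cells (8.48-fold). Adora2b, an adenosine receptor, was the 1 of 25 vasoactive receptors and peptides that rose (4.85-fold, 2.53 to 9.29, limma adjusted p = 0.00418), at 200.4 to 319.6 on left and 43.0 to 54.1 on right arrays. A probe set of Il1rl1, the receptor of interleukin-33, read 2150.4, 1811 and 1845 on left and 11.5, 54.5 and 17.0 on right arrays. Since 2 of the right values lie under the floor, its difference of 5.96 (limma adjusted p = 0.00189) is set in part by the floor. It was named after its values were seen, and the other Il1rl1 probe set differed by 0.03. Likewise 2 probe sets of Igf1, an insulin-like growth factor, passed (2.11 and 2.48, limma adjusted p = 0.000981 and 0.00692), while 3 others differed by 0.05 to 1.15.

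Set against sham arteries of day 4, the 297 probe sets fell into groups, which are descriptions since the comparisons share arrays. In that fit 1117 probe sets (19.2%) differed between left and sham, 657 higher (11.3%) and 460 lower (7.89%), and 514 (8.82%) between right and sham arteries, 363 higher (6.23%) and 151 lower (2.59%). Over 1 probe set per gene, 736 (20.8%) and 332 (9.36%) differed. Of the 95 higher probe sets, 73 (61 named genes) passed against sham in the left artery and not in the right one, with median differences of 1.95 left against right, 1.90 left against sham and 0.13 right against sham. Of the 202 lower probe sets, 100 (77 named genes) were below sham in the left artery alone by this threshold, with medians of -2.08, -1.92 and 0.04. Another 71 (57 named genes) were above sham in the right artery and did not pass in the left one, with medians of -2.35 left against right, 2.66 right against sham and 0.13 left against sham. A lower value in the left artery therefore stood for a left level below sham in some genes and for a right level above sham in others. Without right replicate 3, 15 of the 71 still passed left against right, and 27 to 53 did when another array was left out.

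**Figure D2:**
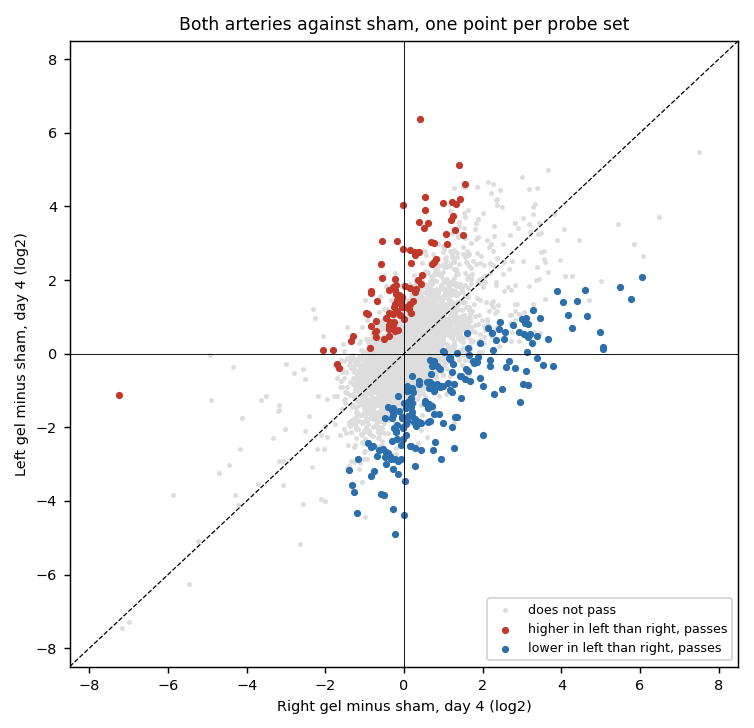
Difference from sham arteries of day 4 in right arteries (horizontal axis, log2) and in injured left arteries (vertical axis, log2) for each tested probe set, with the 95 higher in red and the 202 lower in left than right in blue. Most red points lie above 0 on the vertical axis near 0 on the horizontal one, while blue points run from below 0 on the vertical axis to the right of 0 on the horizontal one. Both axes use the same sham arrays.

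Genes low in the injured artery against both references included signals and matrix proteins of the resting wall. Bmp4, a bone morphogenetic protein, read 19.9, 8.1 and 12.6 on left and 464, 537 and 453 on right arrays, with sham at 396 to 746. All left values lay under the floor, while right and sham shared a range, so the fall is a bound of at least 20.7-fold (limma adjusted p = 0.00108, at most 0.0107 with any 1 array left out). It was the 1 of 18 TGF-beta and BMP genes that passed, where 3.5% of all genes were lower. Omd, osteomodulin, a small leucine-rich proteoglycan, read 309, 447 and 289 on left and 2799.6, 2717 and 3718 on right arrays, 8.91-fold lower (2.76 to 28.7, limma adjusted p = 0.0226). Sham arrays read higher still, at 6266 to 9000.4. Fmod, fibromodulin, which shapes collagen fibrils, was the other of 6 proteoglycans of this family that fell (4.17-fold, limma adjusted p = 0.0122), while its other probe set did not differ (-0.00). Gpc3, a glypican that holds growth factors at the cell surface, read 29.0, 56.4 and 70.7 on left and 996, 453 and 367 on right arrays, 11.3-fold lower (3.32 to 38.4, limma adjusted p = 0.015). Sdc1, a syndecan of the same broad class, rose 3.02-fold (1.55 to 5.86, limma adjusted p = 0.0427), while its other probe set differed by 0.31 with overlapping groups.

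Potassium channels, which relax smooth muscle when they open, gave 2 lower and 0 higher of 10, against 3.5% of all genes that were lower. Kcnk3, a potassium leak channel, read 56.0, 38.3 and 44.5 on left and 160.1, 456 and 299.6 on right arrays, 6.12-fold lower (2.66 to 14.1, limma adjusted p = 0.00775). Abcc9, the regulatory subunit of the ATP-sensitive potassium channel, was 3.43-fold lower (limma adjusted p = 0.035), while its other probe set differed by -0.34 with overlapping groups. Vasoactive receptors and peptides gave 1 lower and 1 higher of 25 (median 0.07). Adra1d, an adrenergic receptor that contracts arteries, read 69.0, 30.0 and 18.9 on left and 234, 272 and 136 on right arrays. Right arrays lay below the sham range of 399.8 to 596 and left arrays lower still, and the left artery was 5.65-fold lower than the right (2.88 to 11.1, limma adjusted p = 0.00278). Gucy1b1, a subunit of the guanylate cyclase that senses nitric oxide, was 2.32-fold lower (1.45 to 3.74, limma adjusted p = 0.0306), at 784 to 849.6 on left and 1644 to 2469.8 on right arrays. Ddah1, which clears inhibitors of nitric oxide synthase, was 3.50-fold lower (limma adjusted p = 0.00189), but its other probe set differed by 0.45. Vipr2, a receptor of vasoactive intestinal peptide named after its values were seen, lay under the floor on all left arrays and was at least 5.24-fold lower (limma adjusted p = 0.00987). Maoa, the enzyme that degrades noradrenaline, also named after its values were seen, was 8.06-fold lower (limma adjusted p = 0.00137) and its other probe set differed by -2.04. Against sham, Maoa differed by -1.71 in left and 1.3 in right arteries, and its other probe set by -0.62 and 1.42.

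Contractile proteins did not pass between left and right: 0 of 17 were higher and 0 lower, with a median of -0.19. Myh11, the smooth muscle myosin heavy chain, read 1569, 1753 and 1456 on left and 2994, 4411 and 3198 on right arrays. The sham range of 5903 to 9544 lay above both, and left lay below right without overlap, but the difference did not pass (-1.13, limma adjusted p = 0.141, with other probe sets at 0.91 and -2.53). Itga8 and Itga7, integrins of smooth muscle, and Ppp1r12a, the targeting subunit of myosin phosphatase, read lower on every left than on every right array and did not pass either (-1.86, -0.94 and -1.66, limma adjusted p = 0.0671, 0.174 and 0.138). Lower left values without overlap were found for 13.8% of all probe sets. Against sham, 7 of 17 contractile genes were lower in the left artery and 2 in the right artery, where 8.09% and 2.43% of all genes were lower, with medians of -0.77 and -0.65. Cnn1, calponin, was below sham on both sides, by 1.59 in the left (limma adjusted p = 0.000585) and by 1.21 in the right artery (limma adjusted p = 0.0148). Calcium handling genes gave 0 of 18 either way (median -0.31).

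Glycolysis genes gave 2 lower of 12, and adipocyte markers 3 lower of 15 (Ucp1, Slc2a4 and Fasn), where 3.5% of all genes were lower. The other Fasn probe set differed by 0.3 with overlapping groups. Pfkm, the muscle form of phosphofructokinase, read 579.9 to 793 on left and 2201 to 2974 on right arrays, 3.73-fold lower (2.22 to 6.26, limma adjusted p = 0.00302), while its other probe set differed by 0.45. Slc2a4, the insulin-responsive glucose transporter, was 4.68-fold lower than in the right artery (limma adjusted p = 0.0291) and -3.56 against sham, and its other probe set differed by -2.09. Ucp1, the uncoupling protein of brown fat, read 34.1, 97.4 and 114 on left and 2546, 434 and 211 on right arrays, so right replicate 1 was high above the rest. It was 8.51-fold lower in the left (2.29 to 31.7, limma adjusted p = 0.0467), and without one array the adjusted p rose to 0.281. The mean of the adipocyte list was -0.32 to 0.25 in left, 0.54 to 1.18 in right and -0.39 to 0.09 in sham arrays. Without right replicate 1 or left replicate 2, 0 of the 15 adipocyte markers passed.

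Genes known from nerve cells were lower in the left artery and read high on the right arrays. Of 25 nerve and Schwann cell markers tested, 7 (Th, Chrna3, Uchl1, Dbh, Scg2, L1cam and Nefl) were lower in left than in right arteries and 0 higher, with a median of -1.60. Of all genes, 3.5% were lower and 1.64% higher. The list mean was 1.64 to 2.33 in right, -0.01 to 1.09 in left, -0.85 to -0.24 in sham and -0.65 to 1.43 in intact arrays. Of the 40 arrays, 1 left tPA array of day 1 also reached this level (1.76). Dbh, the enzyme that makes noradrenaline, read 77.8, 377 and 60.1 on left and 867, 1786 and 4404 on right arrays, against 5.9 to 46.3 in sham. Right arrays were the highest, left arrays lay between right and sham, and no group overlapped another. Dbh was 15.7-fold lower in left than right (3.68 to 66.9, limma adjusted p = 0.0206) and 6.06 higher on the log2 scale in right than sham (limma adjusted p = 4.13e-05). Intact arteries spread from 28.2 to 815 for Dbh, and the highest of these came close to the lowest right array.

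Th, tyrosine hydroxylase, the first step of catecholamine synthesis, read 446, 641 and 398 on left and 1798, 3059 and 3811 on right arrays, 5.69-fold lower (2.61 to 12.4, limma adjusted p = 0.00692). Sham arrays read 239.9 to 421 for Th, and 1 of the intact arrays read 2581, within the range of the right arrays. Chrna3, the nicotinic receptor subunit of autonomic ganglia, read 59.2, 285 and 58.5 on left and 986, 1029 and 1637 on right arrays, 11.9-fold lower (3.82 to 37.1, limma adjusted p = 0.00775). Left replicate 2 was the highest left array for Dbh, Th and Chrna3. Uchl1, a ubiquitin hydrolase of neurons, Scg2, a granin of secretory vesicles, L1cam, an adhesion molecule of axons, and Nefl, a neurofilament subunit, were lower by 2.20, 2.65, 1.68 and 2.86 on the log2 scale. Of the myelin genes in the same list, Mag, Gjb1 and Pmp22 differed by -0.23, 0.05 and 1.05 and Mbp by -1.60, and none of these passed. Against sham, 13 of 25 were higher and 2 lower in the right artery (6.94% and 2.43% of all genes), and 4 higher and 1 lower in the left artery (12.7% and 8.09%), with medians of 2.23 and 0.55. With any 1 array left out, 13 or 14 were still higher in right than sham. Between left and right, 0 of 25 were lower without right replicate 3, 1 without left replicate 1 or 3, and 3 to 8 otherwise, with medians of -1.94 to -1.26.

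**Figure D3:**
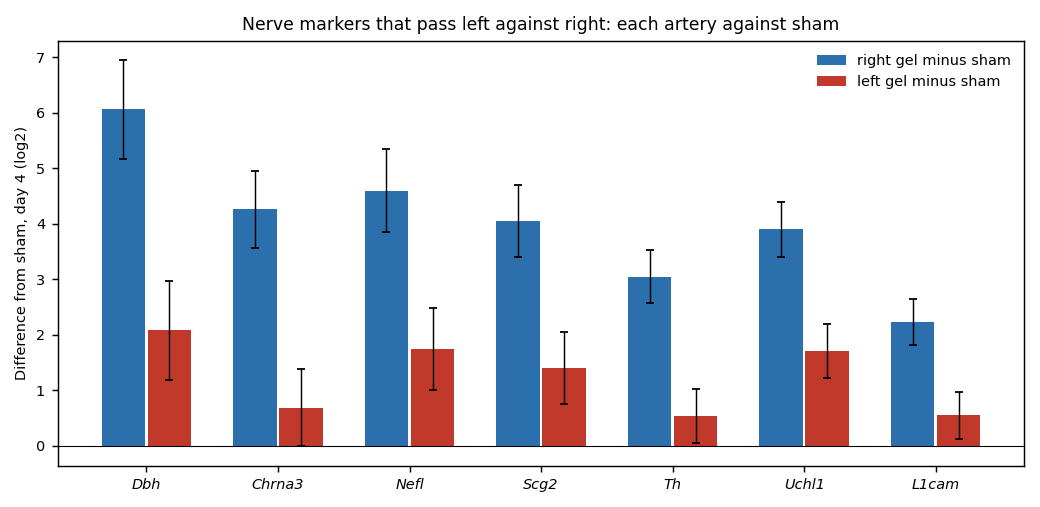
Difference from sham arteries of day 4 (log2, bars, with standard errors) for the 7 nerve markers that were lower in left than right arteries, in right and in injured left arteries. All 7 right bars lie between 2.23 and 6.06 and above their left bars, which lie between 0.54 and 2.08.

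Many of the genes named for the largest falls are known from neurons and belong to no list used here. Scg3, a secretogranin, read 60.4, 96.3 and 67.5 on left and 1001, 964 and 2925 on right arrays, with sham at 9.3 to 38.3 (19.3-fold lower in left, 3.83 to 97.2, limma adjusted p = 0.0252). Sv2b, a synaptic vesicle protein, read 33.1 to 42.7 on left and 685, 351 and 1238 on right arrays, and sham arrays at 30.5 to 131 lay with the left ones. It was 17.4-fold lower (6.15 to 49.2, limma adjusted p = 0.00172, at most 0.0205 with any 1 array left out). Mapk8ip2, a scaffold of JNK signalling in neurons, was 20.9-fold lower (6.01 to 72.9, limma adjusted p = 0.00418), and Nalcn, a sodium leak channel, 14.4-fold lower (4.75 to 43.5, limma adjusted p = 0.00435). Gnao1, the alpha subunit of a G protein abundant in neurons, read 237, 312 and 102 on left and 1366, 3747 and 4279 on right arrays. Sham arrays read 848 to 1507 for Gnao1, so for this probe set the left arrays also lay below sham (-2.56, limma adjusted p = 0.0019). The other Gnao1 probe set was lower in left than right too (-1.96), but lay near sham in left (-0.21) and above it in right arteries (1.74). Map2, Elavl4 and Syt4, genes of dendrites, neuronal RNA binding and vesicle release named after their values were seen, were lower by 3.51, 1.64 and 2.32. Aldoc, the brain form of aldolase, Ptprr, a tyrosine phosphatase, Casz1, a zinc finger factor, Pc, pyruvate carboxylase, and Spock2, a proteoglycan, complete the 12 genes named by rule for the largest falls (-4.27 to -3.81). Of the 12, 7 passed in each fit with 1 array left out: Mapk8ip2, Bmp4, Ptprr, Sv2b, Nalcn, Gnao1 and Pc. Of the 12 largest rises, Tnn, Arg1, Racgap1 and Col12a1 did.

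Other lists gave few or no calls between left and right, where 1.64% of all genes were higher and 3.5% lower. Of 11 genes of insulin-like growth factors 1 was lower, Igfbp5, a binding protein of these factors, which read 109, 38.0 and 102 on left and 144, 744 and 404 on right arrays (limma adjusted p = 0.0278). Of 21 heat shock and antioxidant genes 1 was lower, Mt3, a metallothionein (-3.13, limma adjusted p = 0.0365), and of 54 genes of oxidative phosphorylation 1 was higher, Cox8a, a subunit of cytochrome oxidase (1.27). Other Cox8a probe sets differed by -0.54, 0.05 and 3.64, and none of them passed. Of 20 immediate early transcription factors, 40 ribosomal proteins, 27 proteasome subunits, 17 genes of fatty acid oxidation and 9 of complement, 0 passed in either direction, with medians of 0.34, 0.14, 0.11, -0.25 and 0.18. These counts use 1 probe set per gene. In the fatty acid list, Acsl1 (-1.51) and Etfdh (-0.47) each had another probe set that passed as lower. Those differed by -2.87 and -3.23 (limma adjusted p = 0.00303 and 0.00784), while a further Acsl1 probe set differed by 0.22. The 15 cytoskeleton genes of the synthetic smooth muscle cell had 13 differences above 0 (median 0.41), and 0 passed.

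Markers of other tissues were also uneven over the right arrays. The mean of 22 skeletal muscle markers was 1.73, 0.23 and -0.63 on right replicates 1, 2 and 3, and -0.81 to -0.23 on left arrays. Tnnc2, the calcium sensor of fast muscle, read 5862, 802 and 155 on right and 143, 46.2 and 262 on left arrays, so right replicate 1 stood far above the others and the groups overlapped. Of the skeletal muscle markers 0 of 22 passed in either direction (median -0.81, and -0.16 without right replicate 1). In right arteries the highest array was replicate 1 for muscle and for Ucp1, but replicate 3 for Dbh and Th. Of thyroid and parathyroid markers 0 of 3 passed, and of blood and platelet markers 0 of 5. The part of nerve, fat and muscle markers in the other left to right differences was not tested.

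**Figure D4:**
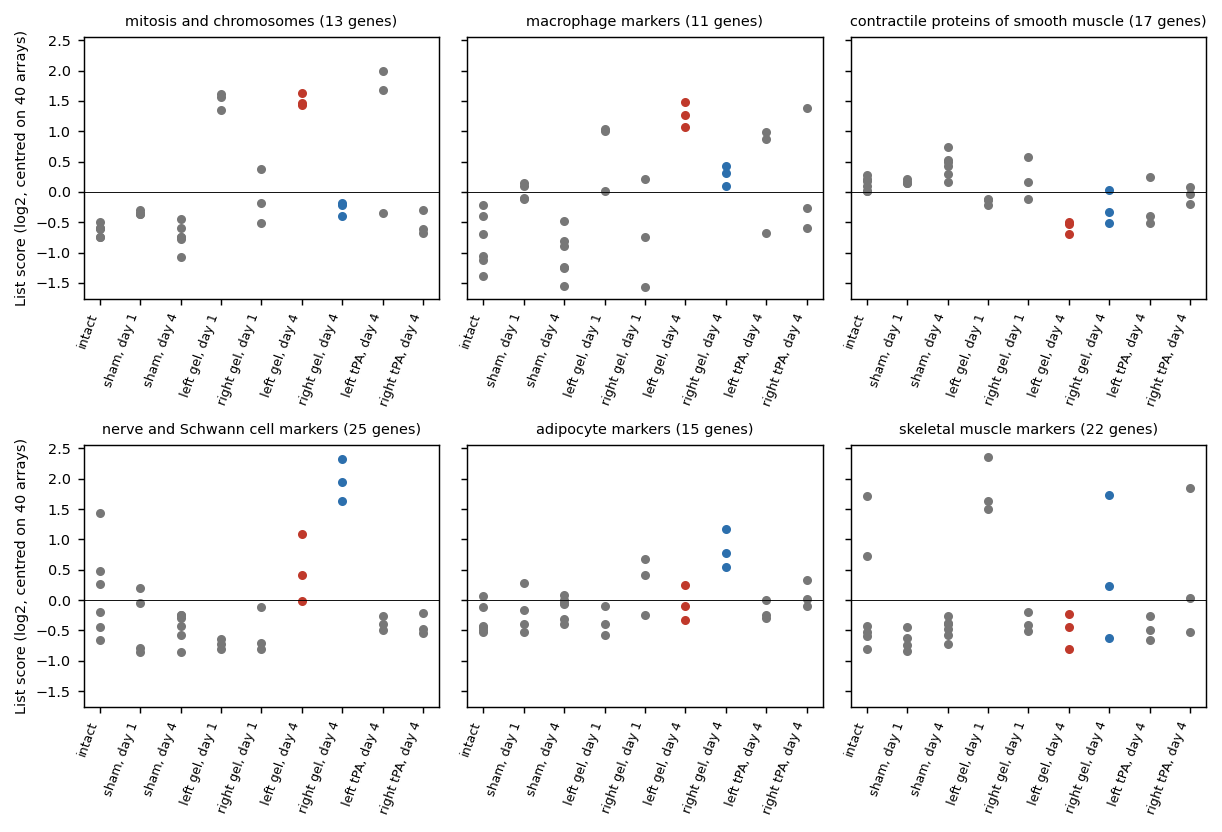
Mean log2 level of 6 gene lists on each array, centred over all arrays, by group. Mitosis genes are high in left gel arrays of both days, nerve markers are higher in the 3 right gel arrays of day 4 (1.64 to 2.33) than on any other array of the 9 groups drawn, and skeletal muscle markers are high in left gel arrays of day 1 (1.5 to 2.36) and on single arrays of other groups, among them 1 right gel array of day 4 (1.73).

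The same left and right pair was available on other arrays. On day 1 with gel, 32 probe sets differed (0.549%), 12 higher (0.206%) and 20 lower (0.343%). The count was 277 with the 4 tPA arrays set aside and 0 to 61 with 1 array left out, with 0 without right replicate 1 of day 1. Of the 95 probe sets higher on day 4, 70 (73.7%) also had a difference above 0 on day 1, where 44.9% of all probe sets above 0 on day 4 did, and of the 202 lower 156 (77.2%) had a difference below 0, where 63.1% of all did. The median day 1 differences were 0.46 and -0.44, smaller than the 1.73 and -2.09 of day 4, values by which these probe sets had been chosen. Mitosis genes were apart on day 1 already: the list mean was 1.35 to 1.62 in left and -0.51 to 0.38 in right arrays. Cdk1, Racgap1 and Top2a differed by 2.70, 2.18 and 2.08 on day 1. Of the 95 higher probe sets, 2 passed as higher on day 1. Tnn and Col12a1 differed by 0.62 and 0.86 on day 1 against 3.74 and 2.86 on day 4. The change between days was tested directly and did not pass for Tnn (3.11, limma adjusted p = 0.139) or for Col12a1. The difference of the left to right difference between days passed for 19 probe sets (0.326%), among them both Igf1 probe sets that passed on day 4 (limma adjusted p = 0.0203 for each).

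On day 4 with tPA in the gel, 2 probe sets differed between left and right (0.0343%), and the test of tPA against gel for this difference passed for 3 (0.0515%). With the 4 tPA arrays set aside, 291 differed between left and right and 5 between tPA and gel. Cenpw was one of the 2 probe sets that passed with all arrays (2.91, limma adjusted p = 0.0448). Of the 95 higher probe sets, 87 (91.6%) were also above 0 under tPA (68.5% of all probe sets above 0 with gel were), and of the 202 lower 162 (80.2%) were below 0 (59.3% of all). Without the 4 arrays these shares were 95.8% (67.8% of all) and 85.1% (61.3% of all), with median differences of 1.21 and -0.81. Leaving out a left array that lacked the high mitosis mean of its group favours such agreement. The values without the 4 arrays are therefore not a separate check. Dbh and Th differed by 0.35 and 0.09 between left and right under tPA and did not pass, and Dbh read 7.3 to 19.1 on the right tPA arrays, below every right gel array of day 4. On day 1 the right gel arrays read 10.1 to 69.3 for Dbh, also below them.

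**Figure D5:**
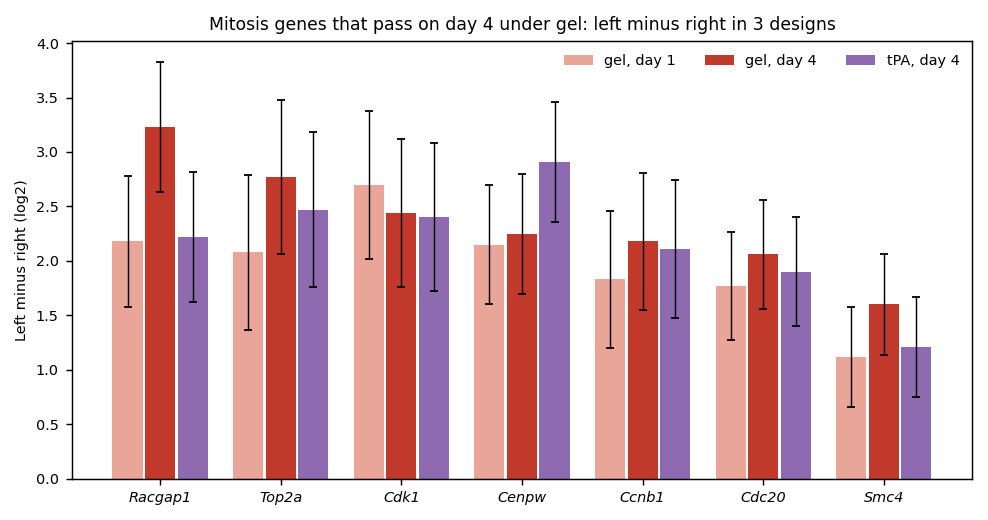
Left minus right difference (log2, with standard errors) of the 7 mitosis genes that passed with gel on day 4, beside the same difference with gel on day 1 and with tPA on day 4, from other arrays. All 21 differences are above 0, from 1.12 for Smc4 on day 1 to 3.23 for Racgap1 with gel on day 4.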

How the data were processed

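Total RNA of pooled carotid arteries was measured on Affymetrix U34A arrays, per the labels. The authors deposited a linear intensity per probe set, scaled so that the mean without the lowest and highest 2% of values is equal on each array, as checked on the values; the summary algorithm is not given in the sources used here, and arrays have no read depth. After 59 control probe sets were left out, intensities were raised to a floor of 23.3 (the 20th percentile), log2 was taken, and probe sets dim on average were dropped, which left 5827 of 8740 probe sets. Of the 8740, 7006 had 1 gene symbol in the platform annotation, 308 several and 1426 none, and no gene is named from the last 2 kinds. Group means of all 40 arrays (11 groups) were fitted with limma 3.58.1 in R 4.3.3, with Benjamini-Hochberg adjusted p at most 0.05, after the code was tested on simulated data. A gene is represented by its brightest tested probe set. Genes named are the 12 largest rises and 12 largest falls that passed without overlap of the 3 and 3 values, up to 4 members with the smallest p of each list, Plat, Plau and Plaur, and the largest differences between effects. For the rises and falls, only probe sets that represent their gene were used, and none that reads near 0 on some arrays. Probe sets outside this rule also passed, among them 1 of Gnas (6.14, limma adjusted p = 1.49e-11) and 1 of Cd24 (-4.89). Other Gnas probe sets differed by -1.92, -1.09 and -0.3. Further list members named were picked with their values known. The members and lists were chosen with earlier results of these data known. Alternatives were the floor, filter, scaling, moderation, array weights, replicate block, groups fitted and leaving out arrays.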

Additional observations from a re-analysis of the deposited data

Results flagged for a closer look

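The left to right difference under gel was not the same on both days for a few named genes, by the limma test of the difference between days. Genes of vesicles and neurons were among them. Sv2b, a synaptic vesicle protein, differed by -4.12 on day 4 and 0.38 on day 1, a change of -4.5 (adjusted p = 0.0445). Uchl1, the neuronal ubiquitin hydrolase, differed by -2.20 and 1.18, a change of -3.38 (adjusted p = 0.0492). Sv2c, a relative of Sv2b, went the other way, with 0.78 and -1.66, a change of 2.43 (adjusted p = 0.0282). Its day 4 difference did not pass by itself (limma adjusted p = 0.26).

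Tnnc2, a troponin of fast skeletal muscle, had the largest change, -8.55 (adjusted p = 0.0264), from 5.64 higher in left arteries on day 1 to -2.91 on day 4. Mtmr7, a lipid phosphatase, changed by -4.47 (adjusted p = 0.0203), from 1.54 to -2.93. Psg19, a pregnancy-specific glycoprotein gene, changed by 1.89 (adjusted p = 0.0441), from -0.98 to 0.91. The day 4 differences of Tnnc2, whose groups overlapped, and of Psg19 did not pass by themselves (limma adjusted p = 0.204 and 0.0807).

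Rab4b, a small GTPase of endosomes, differed by 1.91 with gel on day 4, by -1.29 with gel on day 1 and by -1.92 with tPA on day 4. Its changes were 3.2 between days (adjusted p = 0.0203) and -3.84 between tPA and gel (adjusted p = 0.00278). The day 4 difference with gel passed in 2 of 6 fits with 1 array left out. Another Rab4b probe set differed by 0.48 there, with overlapping groups (limma adjusted p = 0.49). Resp18, a protein of secretory granules, differed by -2.36 with gel and 1.47 with tPA on day 4, a change of 3.83 (adjusted p = 0.0278). In the sham group of day 4 and the intact group, with 6 arrays each, the means of 7 gene lists (14 sets of values) were tested for a single array far from the others and 0 were found. Groups of 3 arrays, the left and right gel groups among them, were not tested.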

How the results depend on the processing

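No call of left against right with gel on day 4, and no call of a named gene, changed direction under any alternative. For the other comparisons, directions were compared for named genes alone. Array weights raised the count of probe sets past the threshold to 1002 for left against right with gel on day 4, 942 for right against sham, 1831 for left against sham, 717 for day 1, 240 for tPA, 458 for the change between days and 52 for tPA against gel. A floor at the 40th percentile gave 457, and 69 for day 1, 80 between days and 37 for tPA against gel. Fits of only the groups compared gave 555, and 51, 0, 49 and 1 for day 1, tPA, between days and tPA against gel. With the 4 tPA arrays set aside the counts were 516, 277, 291, 74 and 5. With no filter on dim probe sets, tPA gave 0, the change between days 45 and tPA against gel 21. With 50% of probe sets left out the change between days gave 12, median scaling gave 82 on day 1, and without probe sets that read near 0 tPA gave 1. The cause of these changes was not tested. The other alternatives for left against right with gel on day 4 gave 259 to 373. Leaving out 1 array gave 79 to 190, 175 to 542 (right against sham), 723 to 1066 (left against sham), 0 to 61 (day 1), 0 to 79 (tPA), 4 to 46 (between days) and 2 to 12 (tPA against gel).

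Same-numbered left and right arrays of day 4 had deviations that correlated at 0.0577, 0.168 and -0.118, which gives no evidence that the numbers pair the pools and does not show that they are unpaired. With a replicate block the count was 276, of which 270 were among the 297, and 315 for right against sham. The number of pools and intensities near the floor limit the precision.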

Other observations

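Genes of sterol synthesis were compared with sham arteries of day 4. Of 14 tested, 9 were higher in right and 6 in left arteries, with medians of 1.13 and 0.94, where 6.94% and 12.7% of all genes were higher. The list mean was 0.21 to 0.38 in left, 0.36 to 1.04 in right and -0.76 to -0.33 in sham arrays, but -0.16 to 0.28 in intact arrays, which overlapped the left ones. Sqle, squalene epoxidase, read 847, 1016 and 945 on left and 1149, 1512 and 2687 on right arrays, against 306 to 426 in sham. No sham array reached either side, and the differences were 1.40 (limma adjusted p = 0.00102) in left and 2.24 (limma adjusted p = 1.34e-05) in right arteries. Idi1 and Cyp51, earlier and later enzymes of the same path, were higher by 2.23 and 0.95 in left and by 1.34 and 1.64 in right arteries. Between left and right, 1 of the 14 passed: Scd, a desaturase of fatty acids, was lower in left arteries (-2.23, limma adjusted p = 0.0283).

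Of 9 circadian clock genes, 1 was higher and 2 lower in right than sham arteries (6.94% and 2.43% of all genes), 2 were higher and 2 lower in left than sham arteries (12.7% and 8.09%), and 0 passed between left and right (median 0.09). Dbp, an output factor of the clock, read 415, 414.5 and 230.0 on left and 680.1, 548 and 240.6 on right arrays, below the sham range of 1365 to 3417. Its differences from sham were -2.60 (limma adjusted p = 0.000612) in left and -2.21 (limma adjusted p = 0.00721) in right arteries. Nr1d1, a repressor in the clock, was lower by 2.13 and 1.36. Bmal1, which Nr1d1 represses, was higher by 1.34 (limma adjusted p = 0.0272) in left and 1.77 (limma adjusted p = 0.00845) in right arteries. The hour of removal is not given in the sources used here, and its part was not tested.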
